A study of Rattus norvegicus with 32 samples.

Results

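The genes described here encode the glycocalyx of liver sinusoidal endothelial cells (LSECs): the syndecan and glypican core proteins and the enzymes that build, sulfate and degrade glycosaminoglycan chains. Members were taken by their symbols, and no measured value enters that rule. They are the syndecans (Sdc), glypicans (Gpc), hyaluronan synthases (Has), hyaluronidases (Hyal), carbohydrate sulfotransferases (Chst), heparan sulfate O-sulfotransferases (Hs2st, Hs3st and Hs6st), N-deacetylase/N-sulfotransferases (Ndst), chain polymerases (Ext and Extl) and extracellular endosulfatases (Sulf). The rule found 53 of the 32623 genes quantified. Gpc5, Hs3st4 and Chst6 were not analysed here.

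The glycocalyx is the sugar-rich coat on the blood-facing side of endothelial cells, made of proteoglycans whose core proteins carry long heparan sulfate or chondroitin sulfate chains, and of hyaluronan, which is extruded at the plasma membrane without a core protein. The sulfation pattern of a heparan sulfate chain sets which growth factors, chemokines and clotting factors it can hold. LSECs are known for clearing circulating hyaluronan through scavenger receptors, and for losing their fenestrae and scavenger functions when the sinusoid capillarizes in chronic liver disease.

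RNA was sequenced from LSECs of untreated Wistar Han rats (healthy, n = 6) and of Wistar Han rats that had inhaled carbon tetrachloride (CCl4), a hepatotoxin, for 2 weeks (acute injury, n = 5), 6 weeks (fibrosis, n = 5) or 12 to 14 weeks (cirrhosis, n = 6). Per the study's methods the rats were male, the drinking water of the CCl4 model held phenobarbital, and cells were isolated some days after the last dose, so that all injured groups carry the toxicant, the phenobarbital and this pause. The labels of the cirrhosis libraries name CCl4 without its duration, which comes from the series' description. A second experiment on thioacetamide (TAA), another hepatotoxin, has a group labelled control (n = 5) and a group labelled TAA control (n = 5). The labels give Wistar Han for these as well, whereas the study's methods describe Sprague-Dawley rats given saline or TAA. The sources used here do not settle which group received TAA, so its differences are given as TAA control minus control, without a disease direction. LSECs were obtained by liver perfusion, digestion and an iodixanol density gradient, a separation by density without a surface marker, and the study describes the libraries of a group as independent isolations, so p-values measure the spread between isolations. Independence is uncertain for TAA control replicates 14 and 15, the most alike pair, and p-values of the TAA experiment carry this limit.

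Total counts per library ranged from 25646531 to 46464289, and glycocalyx genes made up a median of 0.190% of the counts in healthy, 0.0852% in acute, 0.0858% in fibrosis and 0.144% in cirrhosis libraries. Levels are given as counts scaled to library size (CPM) with TMM scaling, set within the CCl4 experiment and separately within the TAA experiment, so levels are not compared across the 2 experiments or between genes. The acute and fibrosis libraries stood apart from the rest in the cell type they are labelled with. The summed level of 15 LSEC markers was 21508 to 40956 CPM in healthy and 19745 to 25149 CPM in cirrhosis libraries, against 4936 to 5735 CPM in acute and 3513 to 4843 CPM in fibrosis libraries, and no marker of the list was at 0 throughout a group. Of these 15 markers, 13 were lower and 0 higher in acute injury than in healthy libraries (37.9% of all genes lower). In fibrosis 14 were lower and 0 higher (34.9% of all genes lower). Stab2, the main hyaluronan scavenger receptor, averaged 3482 ± 1304 CPM in healthy and 148 ± 71.7 CPM in acute libraries. Cdh5, a general endothelial junction gene on the same list, went against most of it, at 1293 ± 430.1 and 1597 ± 336 CPM (mean ± SD). Genes that respond to tissue dissociation moved with the same division, with a summed level of 28611 to 60222 CPM in healthy, 926 to 4081 CPM in acute, 3573 to 6008 CPM in fibrosis and 18057 to 36771 CPM in cirrhosis libraries. The part of either difference in the values that follow was not tested. No label names a batch, so a batch shared by the acute and fibrosis libraries and the stage of injury cannot be told apart. Stellate cell markers summed to 362 to 1003 CPM in healthy and 941 to 2213 CPM in cirrhosis libraries, and to 2936 to 6251 CPM in the control and 529 to 927 CPM in the TAA control libraries. In the acute and fibrosis libraries most of the stellate sum was Reln, at 1678 ± 292 and 1377 ± 159.9 CPM, against 167 ± 34.7 CPM in healthy libraries, whereas of the 11 stellate markers tested 1 was higher and 8 were lower in acute injury, and 3 were higher and 5 lower in fibrosis, than in healthy libraries. Hepatocyte markers differed most within the healthy group, from 741 CPM in replicate 5 and 2081 CPM in replicate 3 to 17727 CPM in replicate 2. Immune cell markers moved with the acute and fibrosis division too. Kupffer cell markers summed to 332 to 3611 CPM in healthy, 63.4 to 201 CPM in acute, 25.7 to 177 CPM in fibrosis and 839 to 3086 CPM in cirrhosis libraries, with 8 and 9 of 9 lower in acute injury and fibrosis than in healthy libraries. Lymphocyte markers summed to 15.5 to 215, 0.530 to 2.45, 2.36 to 19.4 and 14.2 to 35.0 CPM and neutrophil markers to 9.09 to 113, 0.272 to 1.07, 0.266 to 2.67 and 6.63 to 44.8 CPM in the same order of groups. The part of these cells in the values that follow was not tested. In bulk samples such as these, fewer cells of a type and less RNA per cell cannot be told apart.

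A low-count filter left 40 of the 53 genes tested in at least 1 of 7 comparisons and 32 in all of them. The 13 never tested were Ndst3, Ndst4, Hs6st2, Hs6st3, Hs3st2, Hs3st6, Hyal4, Hyal5, Hyal6, Chst4, Chst5, Chst8 and Chst9. Among these, Ndst4, Hyal5 and Hyal6 had a count of 0 in all 32 libraries, which allows a level of up to 0.123 CPM in the library with the smallest scaled total, counting error only. The filter keeps a gene that is near 0 in 1 group and higher in the other, so the counts that follow cover the genes tested and not the whole list. A gene was called when its Benjamini-Hochberg adjusted p in limma-voom, over all genes tested, was under 0.05 and its fold change above 1.5.

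Promoters are shown for 4 genes around which the results turn: the neighbours Hyal2 and Hyal1, which moved in the same direction in each comparison of a CCl4 stage with healthy LSECs, Gpc4, the glypican that fell furthest in acute injury, and Hs3st5, which was measured at almost no other stage than acute injury and fibrosis. The sequences are the 250 bases before the RefSeq start in GRCr8, 5′ to 3′ on the gene's strand, and the capitals mark GC boxes (GGGCGG, searched on both strands).
Hyal2, chr8:117121552-117121801, plus strand: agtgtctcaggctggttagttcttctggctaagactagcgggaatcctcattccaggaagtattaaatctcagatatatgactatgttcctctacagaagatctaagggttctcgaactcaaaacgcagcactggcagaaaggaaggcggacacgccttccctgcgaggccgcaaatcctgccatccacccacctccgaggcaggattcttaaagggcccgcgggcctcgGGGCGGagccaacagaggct
Hyal1, chr8:117129061-117129310, plus strand: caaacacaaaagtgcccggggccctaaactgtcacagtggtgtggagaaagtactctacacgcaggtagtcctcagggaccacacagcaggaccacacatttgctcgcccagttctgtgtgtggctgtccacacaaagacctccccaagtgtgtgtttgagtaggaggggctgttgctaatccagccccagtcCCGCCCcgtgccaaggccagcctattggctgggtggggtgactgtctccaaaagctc
Gpc4, chrX:136676058-136676307, minus strand: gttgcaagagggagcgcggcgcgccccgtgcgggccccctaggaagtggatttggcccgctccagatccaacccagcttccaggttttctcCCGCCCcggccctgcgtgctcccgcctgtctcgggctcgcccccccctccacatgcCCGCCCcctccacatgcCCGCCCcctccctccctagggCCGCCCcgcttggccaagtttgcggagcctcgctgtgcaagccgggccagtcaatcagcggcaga
Hs3st5, chr20:41661535-41661784, plus strand: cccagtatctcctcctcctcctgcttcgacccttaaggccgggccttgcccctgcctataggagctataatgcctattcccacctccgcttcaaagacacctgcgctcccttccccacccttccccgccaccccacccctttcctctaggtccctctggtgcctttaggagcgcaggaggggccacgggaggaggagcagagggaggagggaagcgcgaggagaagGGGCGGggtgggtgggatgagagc
The GC box, the core of the Sp-family binding motif, occurred 1 time each in the Hyal2, Hyal1 and Hs3st5 windows and 4 times in that of Gpc4. It was present in 25 of the 41 glycocalyx genes that matched the promoter table and in 30.5% of all 33465 promoters. Each motif was searched by itself, so that overlapping matches count for both. Of the others, also searched on both strands, the AP-1 motif TGANTCA was in 2 of the 41 promoters (6.34% of all), the ETS core CCGGAA in 3 (12.6% of all) and the E-box CACGTG in 0 (5.59% of all), and none of these occurred in the 4 sequences shown. A match is a string of letters in this window and not a site shown to be bound.

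Hyaluronidases, glypicans, most syndecans and most chondroitin sulfotransferases were lower after 2 weeks of CCl4, while Hs2st1, Sulf1, Extl2 and the chain starter Extl3 were higher. In acute injury 20 of 34 tested genes were lower and 8 higher than in healthy LSECs, or 82.4%, where 73.4% of all 14317 genes tested were called (35.5% higher, 37.9% lower). The median log2 fold change of the tested glycocalyx genes was -1.26, against -0.09 over all genes, and the groups did not overlap for 25 of the 34 (60% of all genes). In fibrosis 16 of 37 were lower and 10 higher (70.3%, against 70.2% of all genes, 35.3% higher and 34.9% lower), with a median of -0.73 against -0.03 and 21 without overlap (58.7% of all genes). In cirrhosis 10 of 38 were lower and 9 higher (50%, against 51.8% of all genes, 27.1% higher and 24.7% lower), with a median of 0.08 against 0.07 and 14 without overlap (27.2% of all genes). The share of glycocalyx genes called was thus near that of all genes in fibrosis and cirrhosis. The cirrhosis split depended on the scaling: with library size alone, which raised the median over all genes by 0.34, it was 13 higher and 6 lower. Over the 3 stages, 7 genes were lower than healthy at each (Sdc3, Ext2, Extl1, Hyal1, Hyal2, Chst14 and Chst15), 4 were higher at each (Extl2, Extl3, Hs2st1 and Sulf1), and 9 were lower in acute injury and fibrosis but not called in cirrhosis (Sdc4, Gpc2, Gpc4, Hs3st3b1, Sulf2, Hyal3, Chst7, Chst12 and Chst2). The 3 comparisons share the healthy libraries, and the share of all genes with each of these patterns was not counted.

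**Figure D1:**
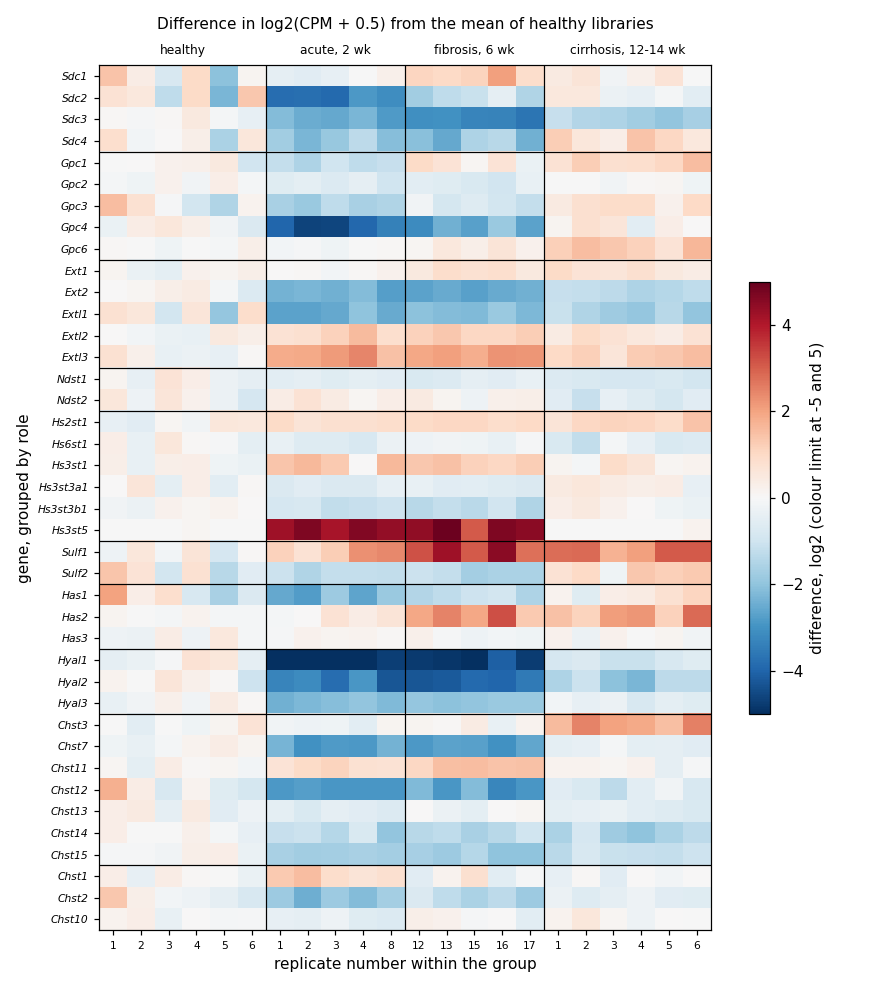
Difference of each library from the mean of the healthy libraries in log2(CPM + 0.5), for the 40 glycocalyx genes tested in at least 1 comparison (rows, grouped by role) and the 22 libraries of the CCl4 experiment (columns, by group and replicate number). Colours run from blue (lower) to red (higher) and stop at -5 and 5. Hyal1, Hyal2, Gpc4 and Chst7 were blue in the acute and fibrosis columns and paler in cirrhosis, Sulf1 was red in each injured group, and Hs3st5 was red in acute injury and fibrosis and near 0 in cirrhosis.

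All 4 syndecans, transmembrane proteoglycans, were tested. In acute injury 3 of the 4 were lower and 0 higher, in fibrosis 2 were lower and 1 higher, and in cirrhosis 1 was lower. Among all genes tested, 37.9%, 34.9% and 24.7% were lower and 35.5%, 35.3% and 27.1% higher at these stages. Sdc3 was lower at every stage. Its levels were from 527 to 979 CPM (median 688) in healthy libraries, 156, 125, 118, 143 and 97.4 CPM in acute injury, 83.4, 84.3, 70.7, 67.7 and 55.3 CPM in fibrosis, and from 179 to 312 CPM (median 228) in cirrhosis. No injured library reached the lowest healthy library, and the fibrosis libraries lay below the others. Sdc3 fell in acute injury (log2 fold change -2.43, SE 0.17, adjusted p = 1.22e-07), fell further in fibrosis (log2 fold change -3.22, SE 0.17, adjusted p = 1.39e-08 against healthy; -0.74 against acute, adjusted p = 0.0089) and remained lower in cirrhosis (log2 fold change -1.58, SE 0.18, adjusted p = 8.88e-05).

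Sdc2 is the syndecan of many mesenchymal cells. Healthy libraries ranged from 4.08 to 56.3 CPM (median 34.1), acute libraries had 1.12, 1.14, 1.03, 2.53 and 2.12 CPM, fibrosis libraries 6.28, 8.86, 9.84, 16.1 and 7.41 CPM and cirrhosis libraries ranged from 15.2 to 31.8 CPM (median 19.1). Every acute library was below every other CCl4 library, whereas the fibrosis and cirrhosis libraries overlapped the healthy group. Sdc2 fell in acute injury (log2 fold change -3.84, SE 0.87, adjusted p = 0.00142) and was not called in fibrosis (-1.18, SE 0.68, adjusted p = 0.13) or cirrhosis (-0.03, SE 0.56, adjusted p = 0.966). Without healthy replicate 5, the fibrosis value was called lower (-1.68, adjusted p = 0.00784), as it was by edgeR (-1.58, adjusted p = 0.0248) and DESeq2 (-1.55, adjusted p = 0.00606). Healthy replicates 3 and 5, whose hepatocyte, Kupffer cell and mesothelial marker sums were the lowest of the group, had 8.80 and 4.08 CPM of Sdc2. The other 4 had at least 31.5 CPM. The same replicates were lowest in Sdc1, with 15.3 and 6.11 CPM, and the part of RNA from these other cell types in the levels was not tested.

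Sdc1, the syndecan of epithelia and hepatocytes, had healthy levels from 6.11 to 74.1 CPM (median 32.4). Acute libraries had 19.98, 18.2, 20.3, 26.7 and 32.8 CPM, fibrosis libraries 57.3, 54.6, 59.2, 113 and 50.1 CPM and cirrhosis libraries ranged from 24.1 to 43.5 CPM (median 35.0). The fibrosis libraries were all above the acute and the cirrhosis libraries but overlapped the healthy ones. Sdc1 was higher in fibrosis than in healthy LSECs (log2 fold change 1.31, SE 0.54, adjusted p = 0.0429), a call lost in 12 of 22 other settings, among them leaving out fibrosis replicate 16 (1.11, adjusted p = 0.1) or healthy replicate 5 (0.87, adjusted p = 0.0602). The other single libraries whose removal ended it were fibrosis replicates 12, 13, 15 and 17 and healthy replicates 2, 3 and 6 (1.14 to 1.41, adjusted p from 0.051 to 0.0908). It was not called in acute injury (-0.20, SE 0.54, adjusted p = 0.748) or cirrhosis (0.33, SE 0.49, adjusted p = 0.578). Against acute injury the rise in fibrosis was larger than the spread (log2 fold change 1.56, SE 0.25, adjusted p = 0.00471).

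Sdc4, a syndecan of focal adhesions, had 37.4, 25.3, 33.2, 50.2 and 28.2 CPM in acute injury and 28.8, 20.9, 42.0, 47.5 and 23.0 CPM in fibrosis. Healthy libraries ranged from 41.1 to 223 CPM (median 140.3) and cirrhosis libraries from 159 to 334 CPM (median 221). Healthy replicate 5 alone reached into the range of the acute and fibrosis libraries. Sdc4 fell in acute injury (log2 fold change -1.84, SE 0.39, adjusted p = 0.00089) and fibrosis (log2 fold change -1.95, SE 0.41, adjusted p = 0.00102). In cirrhosis it stood at 0.87 (SE 0.36, adjusted p = 0.0517) and was not called, although 11 of 24 other settings called it higher, among them leaving out healthy replicate 1 (1.04, adjusted p = 0.0277) or 6 (0.97, adjusted p = 0.0415) or cirrhosis replicate 3 (0.97, adjusted p = 0.0477). From fibrosis to cirrhosis the groups did not overlap and Sdc4 rose (log2 fold change 2.88, SE 0.26, adjusted p = 6.28e-07).

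Glypicans are anchored to the outer membrane by a lipid. All 4 glypicans tested in acute injury were lower (37.9% of all genes), and 2 of 4 were lower in fibrosis (34.9% of all genes). In cirrhosis 2 of 5 glypicans were higher (27.1% of all genes) and 0 lower. From fibrosis to cirrhosis all 5 were higher, where 34.3% of all genes were called higher. Gpc6 passed the filter in both comparisons through its cirrhosis libraries (mean 0.911 CPM, against 0.0815 in healthy and 0.247 in fibrosis libraries). Its direction was thus fixed by the filter. The call of Gpc1 from fibrosis to cirrhosis (0.72, SE 0.28, adjusted p = 0.0308) was lost in 6 of 22 other settings, among them leaving out cirrhosis replicate 2 (0.68) or 6 (0.62) or fibrosis replicate 15 (0.63) or 17 (0.47), with adjusted p from 0.0521 to 0.0947. Gpc4 had 1.69, 0.899, 0.944, 1.80 and 2.78 CPM in acute injury and 3.44, 5.99, 4.72, 9.12 and 4.84 CPM in fibrosis. Gpc4 ranged from 20.2 to 50.8 CPM (median 36.0) in healthy and from 23.5 to 59.6 CPM (median 40.0) in cirrhosis libraries. The 3 ranges of acute injury, fibrosis and healthy cells did not overlap, and the cirrhosis range covered the healthy one to a large extent. Gpc4 fell in acute injury (log2 fold change -4.47, SE 0.37, adjusted p = 4.52e-07) and less in fibrosis (log2 fold change -2.59, SE 0.31, adjusted p = 1.02e-05), and was not called in cirrhosis (0.25, SE 0.27, adjusted p = 0.451). The rise from acute injury to fibrosis was 1.93 (SE 0.35, adjusted p = 0.00697) and that from fibrosis to cirrhosis 2.90 (SE 0.33, adjusted p = 5.32e-06) on the log2 scale.

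Gpc1, an endothelial glypican, had 0.436, 0.218, 0.555, 0.368 and 0.442 CPM in acute injury and 3.59, 2.90, 1.80, 2.93 and 1.20 CPM in fibrosis. The level of Gpc1 ran from 0.594 to 2.43 CPM (median 1.80) in healthy and from 3.01 to 5.62 CPM (median 3.58) in cirrhosis libraries. All cirrhosis libraries were above all healthy ones and all acute libraries below them. Gpc1 fell in acute injury (log2 fold change -1.93, SE 0.42, adjusted p = 0.00111) and rose in cirrhosis (log2 fold change 1.33, SE 0.32, adjusted p = 0.00366), with 0.65 (SE 0.39, adjusted p = 0.15) in fibrosis, not called, although without fibrosis replicate 17 it was called higher (0.90, adjusted p = 0.0486).

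Gpc6 reached 0.0947 CPM at most in acute injury and 0.402 CPM in fibrosis. Its total count was 16 over the 6 healthy and 237 over the 6 cirrhosis libraries, a ratio of 10 per sequenced count (95% exact counting interval 6.03 to 17.8). Cirrhosis libraries ranged from 0.422 to 1.31 CPM (median 0.890) and healthy libraries from 0 to 0.207 CPM (median 0.0731), without overlap. Gpc6 rose in cirrhosis (log2 fold change 3.47, SE 0.51, adjusted p = 0.0002) and was not tested in acute injury or fibrosis against healthy LSECs. Gpc3, an oncofetal glypican of liver tumours, ranged from 0.250 to 5.76 CPM (median 1.73) in healthy libraries, with replicate 1 highest. Acute libraries had 0.191, 0.0817, 0.389, 0.184 and 0.253 CPM of Gpc3, with the highest above the lowest healthy library. Gpc3 fell in acute injury (log2 fold change -2.78, SE 0.83, adjusted p = 0.00878) and had log2 fold changes of -0.89 (SE 0.73, adjusted p = 0.282) in fibrosis and 1.04 (SE 0.55, adjusted p = 0.122) in cirrhosis, neither called. Without healthy replicate 5 it was called lower in fibrosis (-1.40, adjusted p = 0.042), and without healthy replicate 1 higher in cirrhosis (1.43, adjusted p = 0.0303). Its rise from fibrosis to cirrhosis was called (log2 fold change 1.99, SE 0.31, adjusted p = 7.48e-05). Gpc2 was -0.76 in acute injury and -0.73 in fibrosis, both called lower and both lost with library size alone (-0.36 and -0.34), and was -0.04 in cirrhosis.

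**Figure D2:**
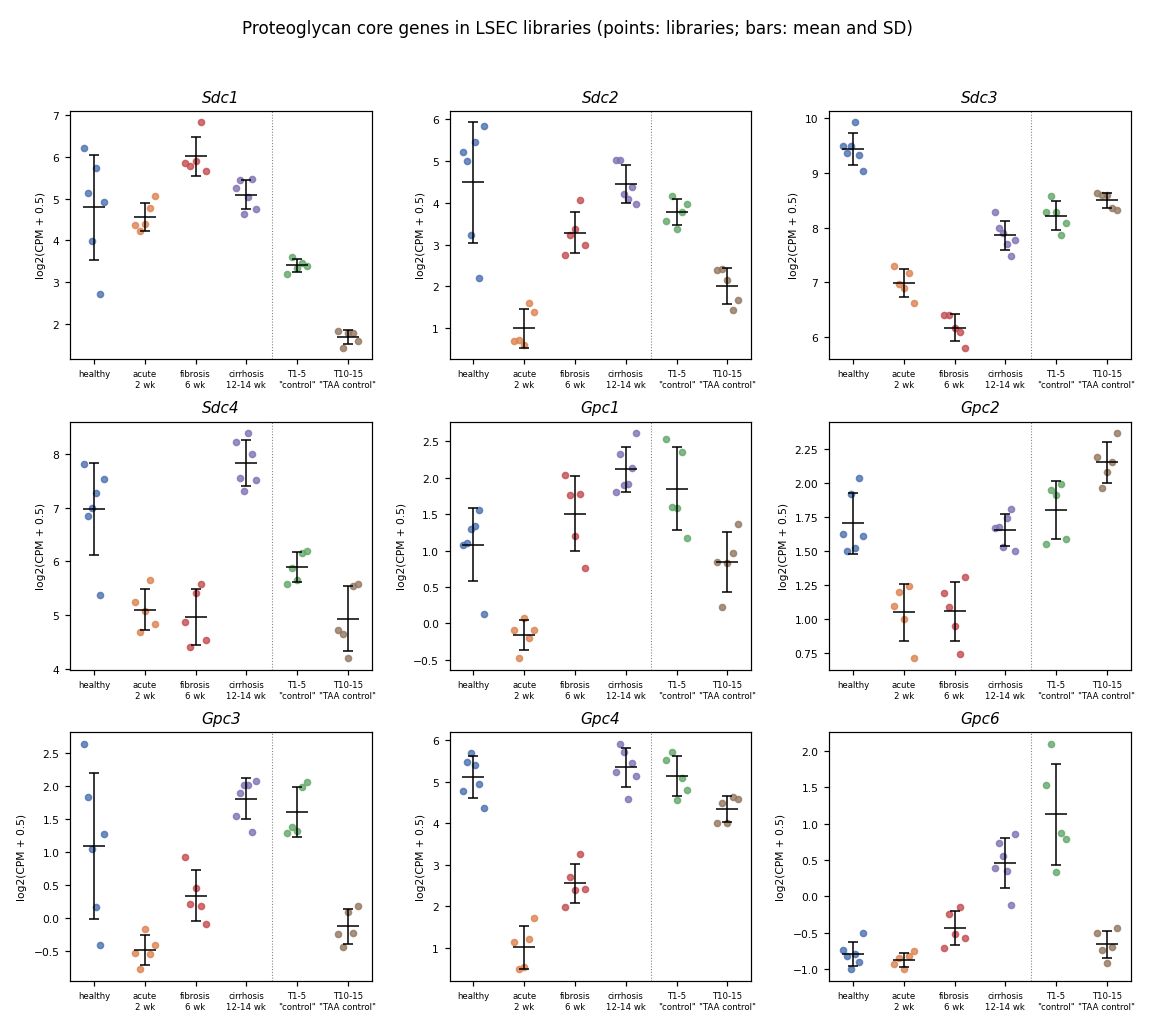
Level of each syndecan and of the glypicans tested, as log2(CPM + 0.5), in the 4 groups of the CCl4 experiment and, right of the dotted line and scaled separately, the control (T1-5) and TAA control (T10-15) groups. Points are libraries and bars the mean and SD. Sdc3 was below its healthy range in each injured group, and Sdc2, Gpc1 and Gpc4 were lowest in acute injury.

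Heparan sulfate chains are polymerised by the Ext1 and Ext2 complex and started by Extl3. Of the 5 polymerase genes 2 were higher and 2 lower in acute injury, and 3 were higher and 2 lower in fibrosis and in cirrhosis. Over all genes 35.5% were higher and 37.9% lower in acute injury, 35.3% and 34.9% in fibrosis, and 27.1% and 24.7% in cirrhosis. The partners Ext1 and Ext2 differed in direction. Ext2 levels were 57.9, 60.5, 56.2, 65.1 and 44.1 CPM in acute injury, 45.9, 51.0, 44.9, 51.8 and 55.8 CPM in fibrosis, from 102 to 134 CPM (median 120.2) in cirrhosis and from 186 to 396 CPM (median 307) in healthy libraries. All injured libraries were below all healthy ones. Ext2 fell at every stage, by 2.37 in acute injury (SE 0.19, adjusted p = 3.07e-07), 2.52 in fibrosis (adjusted p = 1.71e-07) and 1.31 in cirrhosis (adjusted p = 0.00016) on the log2 scale. Ext1 averaged 25.0 ± 5.30 CPM in healthy, 25.3 ± 2.16 CPM in acute, 40.1 ± 5.36 CPM in fibrosis and 39.0 ± 6.12 CPM in cirrhosis libraries (mean ± SD). It was not called in acute injury (0.07, SE 0.18, adjusted p = 0.719) and was higher in fibrosis (0.76, SE 0.18, adjusted p = 0.00214) and cirrhosis (0.66, SE 0.17, adjusted p = 0.00522), where the groups did not overlap. Without healthy replicate 3 the cirrhosis value was 0.56, below the fold threshold.

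Extl3, which adds the first N-acetylglucosamine that commits a chain to heparan sulfate, had 18.6, 18.8, 22.9, 27.9 and 14.0 CPM in acute injury and 19.7, 21.6, 18.0, 24.3 and 23.5 CPM in fibrosis. Among healthy libraries it ranged from 3.43 to 8.43 CPM (median 4.41), and among cirrhosis libraries from 7.49 to 14.8 CPM (median 11.9). The acute and fibrosis libraries lay above every healthy library, and the lowest cirrhosis library was below the highest healthy one. Extl3 rose in acute injury (log2 fold change 2.10, SE 0.27, adjusted p = 1.7e-05), fibrosis (log2 fold change 2.22, SE 0.23, adjusted p = 3.59e-06) and, by less, cirrhosis (log2 fold change 1.25, SE 0.24, adjusted p = 0.00106), and its level was lower in cirrhosis than in fibrosis (log2 fold change -0.91, SE 0.15, adjusted p = 0.000139). Extl2, a related transferase, followed the same order at a mean of 0.771 ± 0.314 CPM in healthy, 2.06 ± 0.674 in acute, 2.29 ± 0.239 in fibrosis and 1.42 ± 0.303 in cirrhosis libraries, and was called higher at each stage (1.46, 1.68 and 0.91).

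Extl1 went the other way. Its total count was 639 over the healthy and 17 over the acute libraries, a ratio of 0.0254 per sequenced count (95% exact counting interval 0.0147 to 0.0409). Extl1 ranged from 0.358 to 5.43 CPM (median 4.37) in healthy libraries, with replicates 5 and 3 lowest. Acute libraries had 0, 0, 0.0555, 0.299 and 0.0631 CPM, fibrosis libraries 0.287, 0.218, 0.199, 0.402 and 0.175 CPM, and cirrhosis libraries ranged from 0.322 to 0.993 CPM (median 0.534). Only the acute libraries were all below the healthy ones. Extl1 fell in acute injury (log2 fold change -5.64, SE 1.13, adjusted p = 0.000608), fibrosis (log2 fold change -3.22, SE 0.86, adjusted p = 0.00474) and cirrhosis (log2 fold change -2.23, SE 0.70, adjusted p = 0.0156).

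Sulfation of the chain starts with the N-deacetylase/N-sulfotransferases, of which Ndst1 and Ndst2 were tested. Neither was called in acute injury or fibrosis and both were lower in cirrhosis. Ndst1 averaged 79.4 ± 26.9 CPM in healthy, 52.9 ± 2.13 CPM in acute, 51.6 ± 5.73 CPM in fibrosis and 43.7 ± 2.58 CPM in cirrhosis libraries. In cirrhosis it fell (log2 fold change -0.79, SE 0.20, adjusted p = 0.00522) without overlap with healthy libraries, while library size alone gave -0.44, below the fold threshold. In fibrosis it was -0.49 (SE 0.21, adjusted p = 0.0497), past the fold threshold without healthy replicate 2 (-0.59) or 6 (-0.64). Ndst2 was 0.44 (SE 0.25, adjusted p = 0.136) in acute injury, where it was called higher without healthy replicate 1 (0.62, adjusted p = 0.0278) or 3 (0.60, adjusted p = 0.0399) and with library size alone (0.84, adjusted p = 0.00423). It fell in cirrhosis (log2 fold change -0.70, SE 0.26, adjusted p = 0.0315), a call lost with library size alone (-0.36), with upper-quartile factors (-0.56) and without healthy replicate 1 (-0.57, adjusted p = 0.0708), 3 (-0.58, adjusted p = 0.0685) or 4 (-0.65, adjusted p = 0.0643). Reads of Ndst2 were in part divided with other genes by the estimation of counts: its count was not whole in 31 of the 32 libraries, and it overlaps Zswim8 in the RefSeq table.

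O-sulfation at the 2-, 6- and 3-positions follows. Hs2st1, the single 2-O-sulfotransferase, was higher at every stage. It had 41.0, 33.1, 37.2, 37.4 and 39.2 CPM in acute injury and 41.1, 44.0, 43.7, 39.5 and 42.3 CPM in fibrosis. Healthy libraries ranged from 13.9 to 31.3 CPM (median 20.6) and cirrhosis libraries from 33.5 to 57.4 CPM (median 44.7). No injured library overlapped the healthy range. Hs2st1 rose by 0.85 (SE 0.21, adjusted p = 0.00257) in acute injury, 1.06 (SE 0.20, adjusted p = 0.000525) in fibrosis and 1.06 (SE 0.20, adjusted p = 0.000975) in cirrhosis on the log2 scale. Hs6st1, the 6-O-sulfotransferase tested, was lower in cirrhosis (log2 fold change -0.65, SE 0.22, adjusted p = 0.0228), a call lost with library size alone (-0.31), without healthy replicate 3 (-0.54) and without cirrhosis replicate 2 (-0.56). It was -0.52 in acute injury and -0.15 in fibrosis, not called, although without healthy replicate 2 the acute value passed both thresholds (-0.61, adjusted p = 0.0163).

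The 3-O-sulfotransferases add the rarest sulfate, and that of Hs3st1 completes the antithrombin-binding site of heparan sulfate. Hs3st1 had 48.6, 57.2, 45.8, 18.9 and 58.4 CPM in acute injury and 47.9, 51.9, 41.9, 37.9 and 44.1 CPM in fibrosis. Hs3st1 ranged from 14.2 to 23.6 CPM (median 19.1) in healthy and from 17.3 to 34.8 CPM (median 20.6) in cirrhosis libraries. Acute replicate 4 lay within the healthy range and apart from the other 4 acute libraries, while all fibrosis libraries were above the healthy and the cirrhosis libraries. Hs3st1 rose in acute injury (log2 fold change 1.25, SE 0.30, adjusted p = 0.00214) and fibrosis (log2 fold change 1.35, SE 0.17, adjusted p = 2.23e-05) and was not called in cirrhosis (0.34, SE 0.21, adjusted p = 0.188).

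Hs3st5, whose product can also take part in antithrombin binding, was measured almost exclusively in acute injury and fibrosis. Its levels were 8.98, 12.3, 8.42, 12.0 and 10.2 CPM in acute injury and 10.5, 14.6, 3.79, 12.4 and 11.1 CPM in fibrosis. Its total count was 1932 over the acute, 1760 over the fibrosis, 1 over the healthy and 3 over the cirrhosis libraries. Every acute and fibrosis library was above every healthy and cirrhosis library, 5 of the 6 healthy and 5 of the 6 cirrhosis libraries being at 0. The ratio per sequenced count of acute to healthy libraries was 1840 (95% exact counting interval 330 to 72800) and that of fibrosis to cirrhosis libraries 920 (314 to 4470). The tests of Hs3st5 had adjusted p = 2.6e-09 for acute injury and 1.12e-07 for fibrosis against healthy LSECs, and 1.05e-06 for cirrhosis against fibrosis. In the TAA experiment 2 of 5 control libraries had 1 or 2 counts of it and the TAA control libraries had 0. Since Hs3st5 was present only in the groups that stood apart as a whole, a batch and the stage cannot be told apart for it.

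Hs3st3b1 fell in acute injury (log2 fold change -0.99, SE 0.15, adjusted p = 5.59e-05) and fibrosis (log2 fold change -1.23, SE 0.15, adjusted p = 1.04e-05), from 40.6 ± 5.61 CPM in healthy to 19.9 ± 2.70 and 16.5 ± 2.48 CPM, and was 0.10 (SE 0.17, adjusted p = 0.6245) in cirrhosis at 43.7 ± 9.30 CPM. With library size alone the acute value was -0.58, below the fold threshold. Its close paralog Hs3st3a1 was under 1 CPM in every library and was tested only in comparisons with cirrhosis, at 0.72 (SE 0.59, adjusted p = 0.311) against healthy LSECs. Counts of each of these paralogs were not whole in 25 of 32 libraries, so that reads could have been divided between them and both are uncertain.

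The endosulfatases Sulf1 and Sulf2 remove 6-O-sulfates from finished chains outside the cell. The pair diverged in acute injury and fibrosis, with Sulf1 higher and Sulf2 lower. Sulf1 had 4.95, 3.51, 5.22, 11.5 and 12.6 CPM in acute injury and 22.1, 46.0, 20.4, 55.0 and 16.1 CPM in fibrosis. The level of Sulf1 ran from 0.858 to 3.38 CPM (median 1.89) in healthy and from 7.67 to 19.9 CPM (median 16.9) in cirrhosis libraries. All injured libraries were above all healthy ones. Sulf1 rose in acute injury (log2 fold change 1.82, SE 0.45, adjusted p = 0.00243), most in fibrosis (log2 fold change 3.94, SE 0.46, adjusted p = 9.87e-06) and in cirrhosis (log2 fold change 2.90, SE 0.37, adjusted p = 0.000125). From acute injury to fibrosis the groups did not overlap, and the step from fibrosis to cirrhosis was -0.99 (SE 0.36, adjusted p = 0.0248), lost without fibrosis replicate 13 (-0.83) or 16 (-0.75) or cirrhosis replicate 3 (-0.81) or 4 (-0.84), with adjusted p from 0.0545 to 0.0637.

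Sulf2 had 7.84, 5.69, 7.28, 7.30 and 7.14 CPM in acute injury and 7.95, 7.21, 4.92, 5.42 and 5.48 CPM in fibrosis. Healthy libraries ranged from 6.33 to 46.0 CPM (median 19.8), with replicates 5 and 3 lowest, and cirrhosis libraries from 14.96 to 45.0 CPM (median 37.4). The acute and fibrosis libraries overlapped the lowest healthy libraries and lay below all cirrhosis libraries. Sulf2 was lower in acute injury (log2 fold change -1.25, SE 0.50, adjusted p = 0.0373), a call lost in 10 of 23 other settings, 8 of which left out 1 library (-1.27 to -0.89, adjusted p from 0.0581 to 0.0859). It was lower in fibrosis (log2 fold change -1.42, SE 0.52, adjusted p = 0.0274), lost in 5 of 22 settings (-1.37 to -1.03, adjusted p from 0.0507 to 0.0942), among them without healthy replicate 4 or fibrosis replicate 15, 16 or 17. In cirrhosis Sulf2 stood at 0.94 (SE 0.46, adjusted p = 0.0963) and was not called, except without healthy replicate 1 (1.23, adjusted p = 0.0301) or cirrhosis replicate 3 (1.16, adjusted p = 0.0465) among the single libraries left out. From fibrosis to cirrhosis it rose (log2 fold change 2.41, SE 0.35, adjusted p = 4.33e-05).

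**Figure D3:**
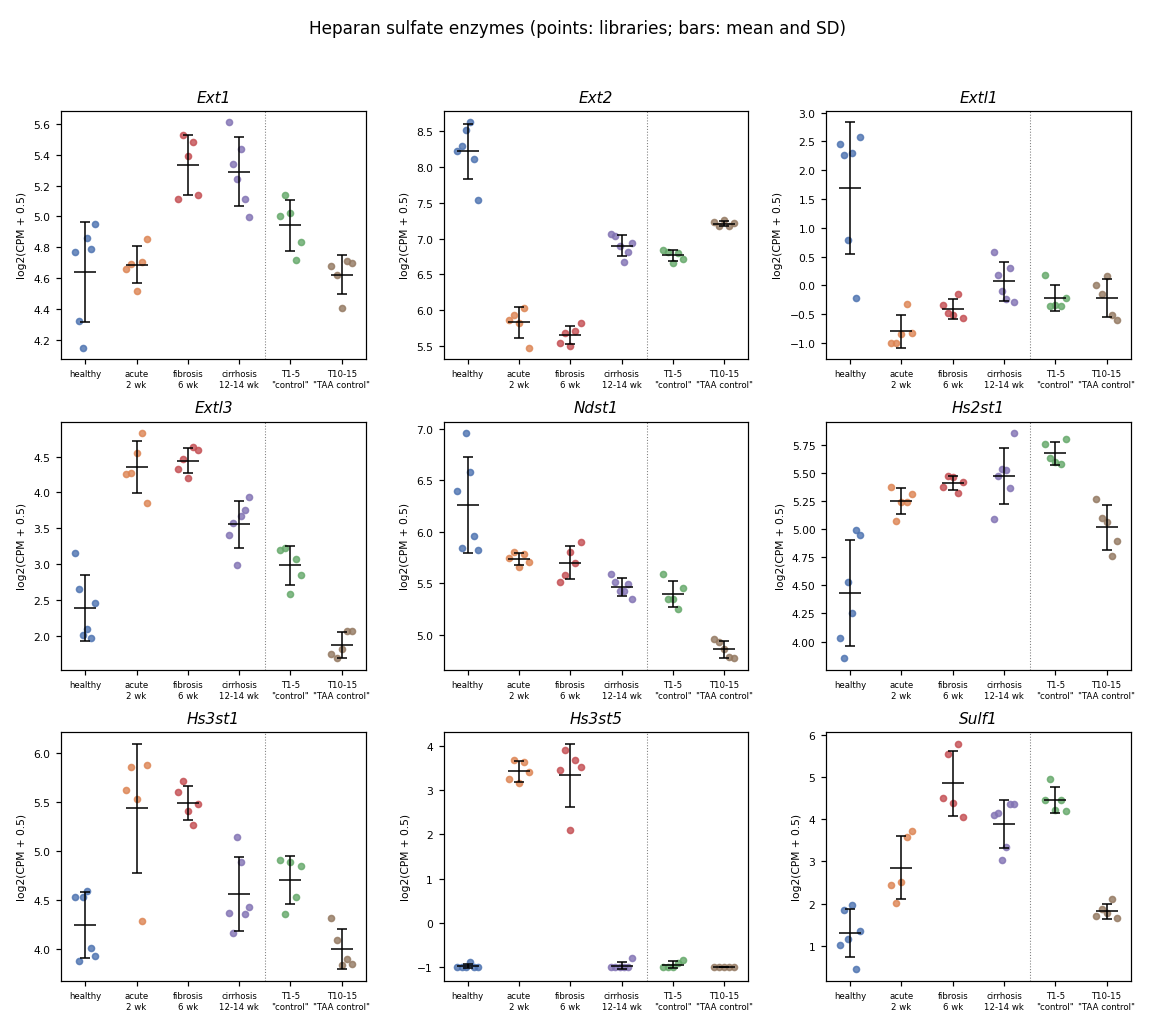
Level of heparan sulfate enzymes as log2(CPM + 0.5), by group, for the polymerases Ext1, Ext2, Extl1 and Extl3, the sulfotransferases Ndst1, Hs2st1, Hs3st1 and Hs3st5 and the endosulfatase Sulf1. Points are libraries, bars the mean and SD, and the groups right of the dotted line belong to the TAA experiment and were scaled separately. The means of Ext2 and Extl1 were below and those of Extl3, Hs2st1 and Sulf1 above the healthy mean in each injured group, and Hs3st5 was near 0 outside acute injury and fibrosis.

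Hyaluronan is made by 3 synthases at the plasma membrane. Has2 was barely detected in healthy LSECs and rose in fibrosis and cirrhosis. Its total count was 7 over the healthy, 371 over the fibrosis and 402 over the cirrhosis libraries. Fibrosis libraries had 1.55, 2.53, 1.56, 4.59 and 0.846 CPM, acute libraries 0, 0.0545, 0.389, 0.207 and 0.347 CPM, cirrhosis libraries ranged from 0.675 to 3.34 CPM (median 1.39) and healthy libraries from 0 to 0.117 CPM (median 0.0171). The fibrosis and cirrhosis libraries were all above the acute and the healthy ones. The ratio per sequenced count to healthy libraries was 56.1 in fibrosis (95% exact counting interval 27 to 141) and 38.8 in cirrhosis (18.6 to 97). Has2 was called higher in fibrosis (adjusted p = 1.43e-05) and cirrhosis (adjusted p = 0.000151), and in fibrosis against acute injury (log2 fold change 4.03, SE 0.87, adjusted p = 0.0116). It was not tested in acute injury against healthy LSECs.

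Has1 ranged from 0.930 to 17.4 CPM (median 3.63) in healthy libraries, with replicate 1 highest. Acute libraries had 0.245, 0.136, 0.778, 0.207 and 0.726 CPM, fibrosis libraries 1.09, 1.34, 1.66, 1.84 and 1.02 CPM and cirrhosis libraries ranged from 2.42 to 8.84 CPM (median 5.29). Acute libraries were below all the others, while fibrosis and cirrhosis libraries overlapped the healthy group. Has1 fell in acute injury (log2 fold change -3.41, SE 0.87, adjusted p = 0.0033) and was not called in fibrosis (-1.38, SE 0.70, adjusted p = 0.0923) or cirrhosis (0.48, SE 0.57, adjusted p = 0.486). Without healthy replicate 5 it was called lower in fibrosis (-1.79, adjusted p = 0.0174), as it was by edgeR (-2.02, adjusted p = 0.0146) and DESeq2 (-1.98, adjusted p = 0.00175). Healthy replicate 1, with 17.4 CPM of Has1, also had the largest sum of mesothelial markers, 179.6 CPM against 9.40 to 128.1 CPM in the other healthy libraries, and was highest in Gpc3, Chst2 and Chst12. The same replicate was highest of the healthy libraries in summed lymphocyte (214.9 CPM), neutrophil (113 CPM) and cholangiocyte markers (30.7 CPM). The part of RNA from any of these cell types in these levels was not tested. Has3 averaged 2.48 ± 0.781 CPM in healthy libraries and was called in none of the 7 comparisons, with log2 fold changes of 0.17, -0.03 and 0.03 at the 3 stages, and edgeR and DESeq2 did not call it either.

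Hyaluronidases cleave hyaluronan, Hyal2 at the cell surface and Hyal1 in the lysosome. All 3 that were tested were lower in acute injury (37.9% of all genes) and fibrosis (34.9% of all genes). All 3 were higher in cirrhosis than in fibrosis (34.3% of all genes). Hyal1 fell furthest of the 3 in acute injury and fibrosis. Its levels were 1.44, 1.33, 0.833, 0.737 and 2.18 CPM in acute injury and 2.07, 1.97, 1.73, 3.70 and 2.16 CPM in fibrosis. Among healthy libraries it ranged from 50.8 to 117 CPM (median 62.3), and among cirrhosis libraries from 32.1 to 46.0 CPM (median 40.0). The groups of acute injury and fibrosis lay far below the rest, and the cirrhosis libraries just below the healthy range, without overlap. Hyal1 fell in acute injury (log2 fold change -5.83, SE 0.39, adjusted p = 6.61e-08), fibrosis (log2 fold change -4.89, SE 0.33, adjusted p = 1.13e-07) and cirrhosis (log2 fold change -0.86, SE 0.22, adjusted p = 0.00556), where library size alone gave -0.51, below the fold threshold.

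Hyal2 had 37.4, 41.0, 25.8, 48.3 and 18.7 CPM in acute injury and 18.5, 19.7, 24.6, 23.1 and 31.2 CPM in fibrosis. Healthy libraries ranged from 180.1 to 563 CPM (median 399) and cirrhosis libraries from 75.0 to 174 CPM (median 137). All cirrhosis libraries lay between the injured groups before them and the healthy range. Hyal2 fell in acute injury (log2 fold change -3.47, SE 0.30, adjusted p = 5.61e-07), fibrosis (log2 fold change -3.94, SE 0.26, adjusted p = 9.01e-08) and cirrhosis (log2 fold change -1.60, SE 0.28, adjusted p = 0.000557), and rose from fibrosis to cirrhosis (log2 fold change 2.40, SE 0.23, adjusted p = 1.04e-06). Hyal3 averaged 22.0 ± 4.75 CPM in healthy, 4.37 ± 0.550 CPM in acute, 5.30 ± 0.358 CPM in fibrosis and 15.8 ± 2.53 CPM in cirrhosis libraries. It fell in acute injury (log2 fold change -2.28, SE 0.19, adjusted p = 5.24e-07) and fibrosis (log2 fold change -1.96, SE 0.18, adjusted p = 1.06e-06) and was below the fold threshold in cirrhosis (-0.46, SE 0.16, adjusted p = 0.0285).

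Hyal2, Hyal1 and Hyal3 are neighbours in the RefSeq table of GRCr8, and Hyal3 overlaps Hyal1 and Naa80, listed under its older symbol Nat6 in the files. Hyal3 counts were not whole in 31 of 32 libraries, so that its values are less certain. Nat6 was lower at each stage, at -3.01, -2.81 and -1.10 on the log2 scale. Of the nearby genes, Tusc2 was lower as well (-1.41, -1.77 and -0.59), and Ifrd2 was higher in acute injury (2.27) and fibrosis (1.73) and lower in cirrhosis (-0.75). The direction was thus not shared by every gene of the neighbourhood.

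**Figure D4:**
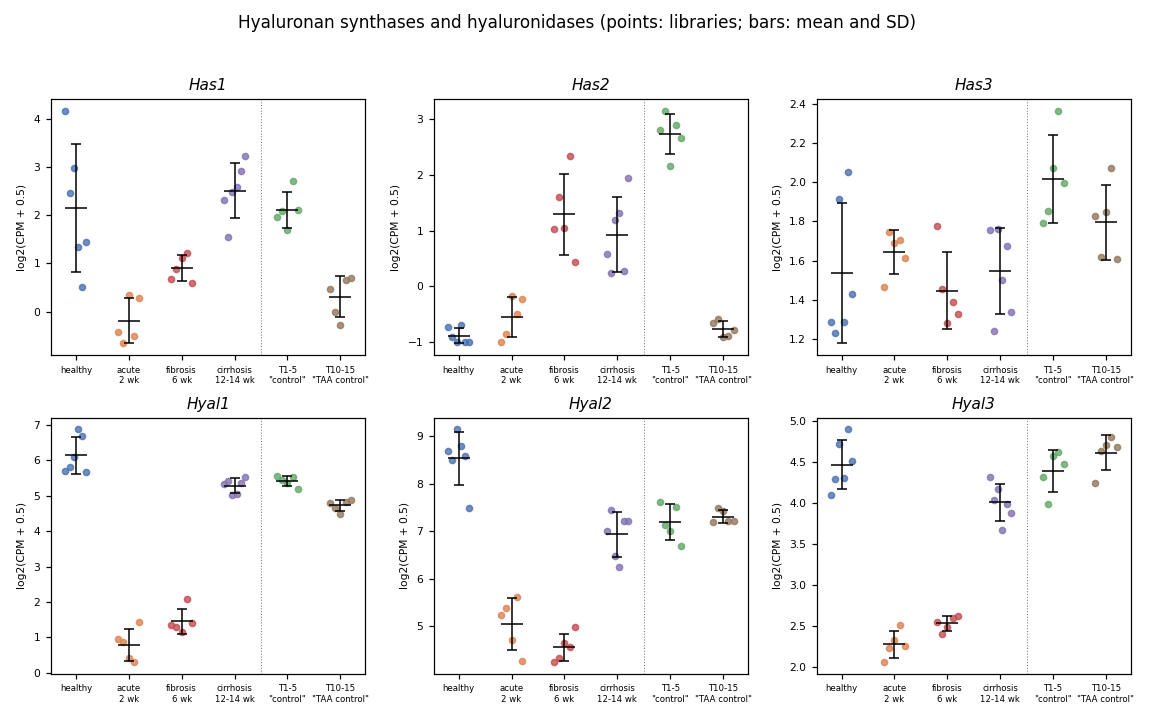
Level of the hyaluronan synthases Has1, Has2 and Has3 and of the hyaluronidases Hyal1, Hyal2 and Hyal3 as log2(CPM + 0.5), by group. Points are libraries and bars the mean and SD, and the groups right of the dotted line belong to the TAA experiment and were scaled separately. The hyaluronidases were lowest in acute injury and fibrosis, Has2 was above its healthy range in fibrosis and cirrhosis, and Has3 overlapped between the groups of each experiment.

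The sulfotransferases of chondroitin and dermatan sulfate were mostly lower in acute injury and fibrosis. In acute injury 4 of 5 tested were lower and 1 higher, in fibrosis 4 of 6 were lower and 1 higher, and in cirrhosis 2 of 6 were lower and 1 higher. Lower calls took 37.9%, 34.9% and 24.7% of all genes at these stages, and higher calls 35.5%, 35.3% and 27.1%. Chst15, which adds the second sulfate of chondroitin sulfate E, had 54.1, 50.1, 51.9, 55.0 and 51.3 CPM in acute injury and 53.6, 47.2, 62.5, 41.8 and 41.1 CPM in fibrosis. Chst15 ranged from 134 to 214 CPM (median 161) in healthy and from 66.1 to 96.7 CPM (median 77.3) in cirrhosis libraries. All injured libraries were below all healthy ones. Chst15 fell in acute injury (log2 fold change -1.66, SE 0.14, adjusted p = 5.76e-07), fibrosis (log2 fold change -1.74, SE 0.16, adjusted p = 1.32e-06) and cirrhosis (log2 fold change -1.10, SE 0.15, adjusted p = 0.000152).

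Chst7, a chondroitin 6-O-sulfotransferase, had 6.83, 3.98, 4.61, 4.54 and 6.69 CPM in acute injury and 4.50, 5.24, 5.05, 3.99 and 5.51 CPM in fibrosis. The level of Chst7 ran from 28.0 to 47.0 CPM (median 36.6) in healthy and from 24.4 to 33.6 CPM (median 26.2) in cirrhosis libraries, so the acute and fibrosis libraries were far below both, and cirrhosis overlapped the healthy range. Chst7 fell in acute injury (log2 fold change -2.77, SE 0.21, adjusted p = 1.95e-07) and fibrosis (log2 fold change -2.83, SE 0.18, adjusted p = 6.73e-08), with -0.41 (SE 0.14, adjusted p = 0.027) in cirrhosis, below the fold threshold. Chst14, the dermatan 4-O-sulfotransferase, averaged 22.9 ± 4.13 CPM in healthy libraries. It fell to 9.43 ± 2.90 CPM in acute injury, 8.79 ± 1.51 CPM in fibrosis and 7.89 ± 2.50 CPM in cirrhosis, with log2 fold changes of -1.26, -1.30 and -1.55 and no overlap with healthy libraries.

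Chst3, another chondroitin 6-O-sulfotransferase, was low in healthy LSECs, from 0 to 0.646 CPM (median 0.203). It ranged from 1.56 to 3.67 CPM (median 2.28) in cirrhosis, above every healthy library. Chst3 rose in cirrhosis (log2 fold change 3.78, SE 0.62, adjusted p = 0.000378) and was not tested in acute injury or fibrosis against healthy LSECs. The 4-O-sulfotransferases moved apart. Chst11 averaged 14.5 ± 2.84 CPM in healthy libraries and rose to 26.3 ± 3.44 CPM in acute injury (log2 fold change 0.91, SE 0.17, adjusted p = 0.000304) and 38.3 ± 5.17 CPM in fibrosis (log2 fold change 1.49, SE 0.17, adjusted p = 6.68e-06), and was 0.05 (SE 0.18, adjusted p = 0.818) in cirrhosis. Chst12 ranged from 16.9 to 109 CPM (median 28.3) in healthy libraries and was 3.89, 4.22, 3.78, 3.80 and 3.79 CPM in acute injury, below all of these. It fell in acute injury (log2 fold change -2.98, SE 0.52, adjusted p = 0.000215) and fibrosis (log2 fold change -2.76, SE 0.54, adjusted p = 0.000567) and was -0.69 (SE 0.41, adjusted p = 0.159) in cirrhosis, not called. Chst13 was tested in fibrosis only, at -0.10 (SE 0.62, adjusted p = 0.887).

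Of the sulfotransferases of other glycans, Chst1, which sulfates keratan sulfate, was higher in acute injury (log2 fold change 1.12, SE 0.23, adjusted p = 0.000679) at 21.9, 25.4, 15.7, 13.5 and 14.9 CPM. These were all above the healthy range of 6.12 to 11.2 CPM, and Chst1 was 0.03 in fibrosis and -0.15 in cirrhosis, not called. Chst2, an N-acetylglucosamine 6-O-sulfotransferase, had 2.89, 1.72, 2.89, 2.19 and 3.22 CPM in acute injury. In healthy libraries it ranged from 6.38 to 30.1 CPM (median 10.02), all above the acute ones. Chst2 fell in acute injury (log2 fold change -2.14, SE 0.42, adjusted p = 0.00049) and fibrosis (log2 fold change -1.35, SE 0.40, adjusted p = 0.009) and was -0.46 (SE 0.31, adjusted p = 0.222) in cirrhosis. Chst10 was under 1 CPM in every library, with log2 fold changes of -0.08 in fibrosis and 0.24 in cirrhosis, not called.

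Between the stages, fibrosis differed little from acute injury in all genes and more often in glycocalyx genes. Of 34 tested, 12 were higher and 2 lower in fibrosis than in acute injury (41.2%), against 11% of all genes (10.2% higher, 0.732% lower), and the groups did not overlap for 10 of them (17.2% of all genes). The genes called higher were the cores Sdc1, Sdc2, Gpc1, Gpc3 and Gpc4, the synthases Has1 and Has2, and Ext1, Sulf1, Hyal1, Chst11 and Chst2, and those called lower were Sdc3 and Chst1. The differences above 2 on the log2 scale were those of Has2, given above, Sdc2 (2.69, SE 0.36, adjusted p = 0.00363), Gpc1 (2.63, SE 0.41, adjusted p = 0.00443), Sulf1 (2.17, SE 0.49, adjusted p = 0.0136) and Has1 (2.09, SE 0.44, adjusted p = 0.0107), each without overlap between the groups. In 1 fit over the CCl4 groups the calls of Sdc2 (2.62, adjusted p = 0.0512), Has1 (2.01, adjusted p = 0.16) and Gpc3 (1.85, adjusted p = 0.144) were lost. The same fit also lost those of Hyal1 (0.91, adjusted p = 0.212), Chst2 (0.76, adjusted p = 0.257) and Chst11 (0.54, below the fold threshold). Hyal1 (0.997, SE 0.31, adjusted p = 0.0469) and Chst2 (0.84, SE 0.26, adjusted p = 0.0447) lost the call in 13 and 11 of 21 other settings, 9 and 8 of them leaving out 1 library. Without 1 library Hyal1 lay between 0.80 and 1.08 (adjusted p from 0.057 to 0.101) and Chst2 between 0.66 and 0.90 (adjusted p from 0.0591 to 0.107) where the call was lost. Chst1 lost it without acute replicate 1 (-0.98, adjusted p = 0.0553), fibrosis replicate 12 (-0.91, adjusted p = 0.0593) or fibrosis replicate 16 (-0.93, adjusted p = 0.0622). Chst11 lay under the fold threshold without acute replicate 1 or fibrosis replicate 15, at 0.58 in both, and with library size alone, at 0.56. Mesothelial markers summed to 3.38 to 30.7 CPM in acute and 74.0 to 186 CPM in fibrosis libraries, and hepatocyte markers to 87.8 to 780.3 and 1032 to 4299 CPM. Of 10 stellate cell markers tested, 6 were higher and 0 lower in fibrosis than in acute injury (10.2% of all genes higher). Their sums, mostly Reln, overlapped at 1341 to 2150 CPM in acute and 1317 to 1760 CPM in fibrosis libraries. The part of any of these cell types in these differences was not tested.

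Cirrhosis against fibrosis called 22 of 39 genes higher and 8 lower (76.9%, against 63.8% of all genes, 34.3% higher and 29.5% lower), with 25 not overlapping (63.3% of all genes). Cirrhosis against acute injury called 25 of 39 higher and 6 lower (79.5%, against 69.3% of all genes, 37.5% higher and 31.8% lower), with 29 not overlapping (65.9% of all genes). Genes higher in cirrhosis than in fibrosis included Hyal1 (4.08, SE 0.22, adjusted p = 7.59e-09), Gpc4 and Sdc4, and Chst3 (3.28, SE 0.50, adjusted p = 6.48e-05). Chst3 passed the filter there through its cirrhosis libraries, so its direction was fixed by the filter. The 8 lower in cirrhosis than in fibrosis were Sdc1 (-0.92, SE 0.22, adjusted p = 0.00243), Extl2, Extl3, Ndst2, Hs3st1, Hs3st5, Sulf1 and Chst11 (-1.38, SE 0.14, adjusted p = 1.81e-06).

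In the TAA experiment 18 of 36 glycocalyx genes were lower and 3 higher in the TAA control than in the control libraries (58.3%, against 27.6% of all genes, 12.7% higher and 14.9% lower), with a median log2 fold change of -0.60 against 0.03 over all genes. For 20 of the 36 the groups did not overlap (35.4% of all genes). The cores took part in this. Sdc1 had 8.67, 11.7, 9.69, 10.5 and 9.96 CPM in control and 3.06, 2.20, 2.93, 2.96 and 2.51 CPM in TAA control libraries, without overlap (log2 fold change -1.88, SE 0.14, adjusted p = 9.25e-06). Sdc2 had 11.3, 17.2, 9.90, 13.1 and 15.2 CPM in control and 4.72, 4.87, 3.92, 2.21 and 2.71 CPM in TAA control libraries, again without overlap (log2 fold change -1.87, SE 0.24, adjusted p = 0.000173). Sdc4 (-0.98, SE 0.26, adjusted p = 0.00882), Gpc1 (-1.25, SE 0.38, adjusted p = 0.0193), Gpc3 (-2.63, SE 0.35, adjusted p = 0.000206) and Gpc4 (-0.82, SE 0.24, adjusted p = 0.0142) were lower too. The Gpc1 call was lost without TAA control replicate 12 (-1.01, adjusted p = 0.0506). Sdc3 (0.28, SE 0.13, adjusted p = 0.0854) was not called, and Gpc2 (0.40, SE 0.15, adjusted p = 0.0428) lay below the fold threshold.

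Has2 gave the largest difference between these groups. Control libraries had 6.52, 8.38, 3.99, 6.93 and 5.88 CPM and TAA control libraries 0.136, 0.167, 0.0329, 0.0395 and 0.0797 CPM. The groups were separated widely, with 928 counts over the control and 13 over the TAA control libraries, a ratio of 0.0146 (95% exact counting interval 0.00776 to 0.0251; adjusted p = 1.98e-05). Has1 was also lower in the TAA control libraries (-2.44, SE 0.36, adjusted p = 0.000333). Sulf1 had 21.6, 30.6, 18.3, 21.3 and 17.7 CPM in control and 2.75, 3.14, 2.93, 3.79 and 2.63 CPM in TAA control libraries (log2 fold change -2.82, SE 0.22, adjusted p = 1.3e-05). Sulf2 had 12.0, 12.2, 9.83, 26.7 and 12.5 CPM in control, with replicate 4 apart from the rest, and 1.73, 2.24, 1.48, 5.09 and 4.90 CPM in TAA control libraries (log2 fold change -2.38, SE 0.41, adjusted p = 0.000914). For both endosulfatases the groups did not overlap.

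Gpc6 (-3.62, SE 0.67, adjusted p = 0.00131), Chst3 (-2.95, SE 0.43, adjusted p = 0.000336) and Extl3 (-1.23, SE 0.17, adjusted p = 0.000275) were lower in the TAA control libraries. There Gpc6 had 1 to 6 and Chst3 3 to 7 counts per library, so their fold changes are not measures of size. Hs2st1 (-0.66), Hs3st1 (-0.72), Hyal1 (-0.70), Chst11 (-0.86) and Chst1 (-0.85) completed the 18 lower genes. The 3 genes that were higher in the TAA control libraries were Chst12 (0.95, SE 0.20, adjusted p = 0.00301), Chst2 (0.93, SE 0.14, adjusted p = 0.00035) and Chst15 (0.86, SE 0.13, adjusted p = 0.000488). Hyal2 (0.11, SE 0.16, adjusted p = 0.588), Hyal3 (0.22), Extl1 (-0.02), Extl2 (-0.36), Chst7 (0.27), Chst14 (0.44), Hs3st3b1 (-0.43), Ndst2 (-0.43) and Has3 (-0.25) were not called, although Hs3st3b1 was lower without control replicate 4 (-0.62, adjusted p = 0.0243). Ext1, Ext2, Ndst1 and Hs6st1 had adjusted p-values under 0.05 but lay below the fold threshold, at -0.33, 0.44, -0.54 and -0.41. Markers of other cells and states differed between the same groups. Stellate cell markers were lower in TAA control libraries for 9 of 12 tested, with the sums given above. Mesothelial markers summed to 15.9 to 33.9 CPM in control and 4.34 to 8.38 CPM in TAA control libraries (4 of 5 tested lower), hepatocyte markers to 1527 to 4141 and 455 to 1109 CPM (6 of 9 lower, 1 higher), and cholangiocyte markers to 4.12 to 10.3 and 1.33 to 2.69 CPM (4 of 4 lower). Dissociation stress genes went the other way, from 11659 to 24059.8 CPM in control to 37502 to 54384 CPM in TAA control libraries (8 of 9 higher). LSEC markers summed to 26247 to 32700 CPM in control and 32539 to 41359 CPM in TAA control libraries (4 of 15 tested higher, 0 lower). Lymphocyte markers summed to 4.03 to 29.4 and 21.1 to 48.2 CPM (3 of 5 tested higher, 0 lower). The part of each in these differences was not tested.

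Cirrhosis and the TAA experiment share no library. Of 36 glycocalyx genes tested in both, 9 were called in both. Higher in cirrhosis and lower in TAA control libraries were 7 of them, Gpc1, Gpc6, Extl3, Hs2st1, Sulf1, Has2 and Chst3, while Chst15 was lower in cirrhosis and higher in TAA control libraries, and Hyal1 was lower in both. Gpc6, Has2 and Chst3 were near 0 in healthy (means 0.0815, 0.0419 and 0.242 CPM) and TAA control libraries (0.139, 0.0909 and 0.188 CPM). These genes passed the filter through the cirrhosis and the control libraries, so the filter fixed their direction in both comparisons. Over all genes, 1934 of 13956 were called in both, of which 975 were higher in cirrhosis and lower in TAA control, 620 the reverse, 240 higher in both and 99 lower in both. The stellate cell marker sum was higher in cirrhosis than in healthy libraries in the median (1709 against 492 CPM), and lower in TAA control than in control libraries (666 against 3353 CPM). The median sum of dissociation stress genes was lower in cirrhosis (24122 against 40505 CPM) and higher in TAA control libraries (49867 against 18196 CPM). Hepatocyte markers were lower in both (4753 against 13247 CPM and 854 against 2381 CPM). The part of each in the shared calls was not tested.

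**Figure D5:**
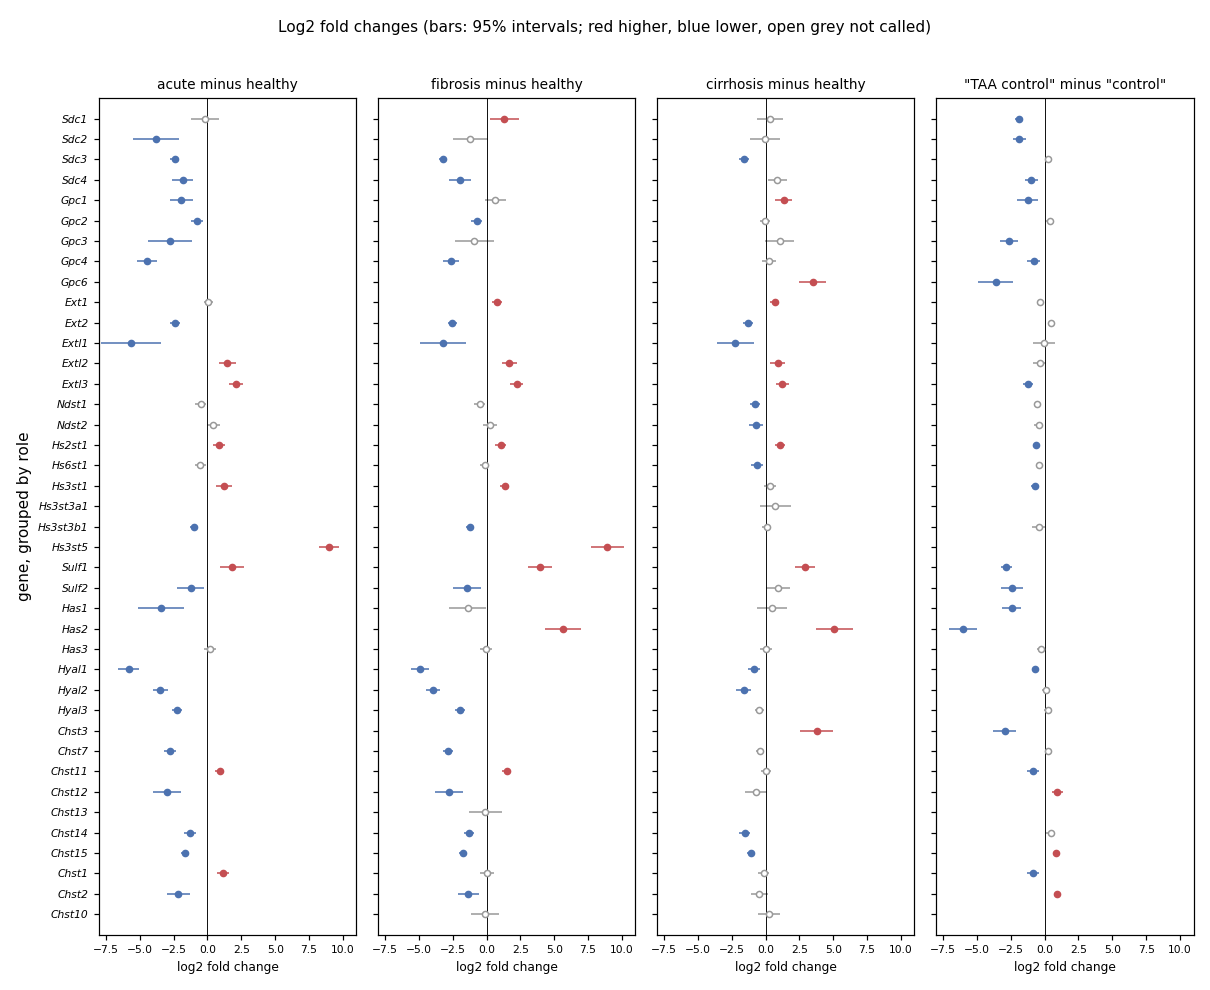
Log2 fold change of each tested glycocalyx gene in acute injury, fibrosis and cirrhosis against healthy LSECs and in the TAA control against the control libraries of the TAA experiment. Points are limma-voom estimates, bars 95% intervals, red and blue called higher and lower, and open grey not called; a missing point was not tested. In the acute panel 20 points are blue and 8 red, and in the TAA panel 18 are blue and 3 red. The points of Hs3st5, Has2, Gpc6 and Chst3, and that of Extl1 in acute injury, rest on groups near 0 and are not measures of the size of the change.

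Genes around these in the pathway were read from 5 lists. The shares called are read against those over all genes, 73.4% in acute injury, 70.2% in fibrosis, 51.8% in cirrhosis and 27.6% in the TAA experiment. Of 15 tested genes for the linkage tetrasaccharide and chain synthesis, 7 were higher and 3 lower in acute injury, 8 and 3 in fibrosis, 4 and 4 in cirrhosis, and 2 and 3 in the TAA experiment, or 66.7%, 73.3%, 53.3% and 33.3% called, near the shares over all genes. In cirrhosis the xylosyltransferases that attach the first sugar to the core diverged, Xylt1 at 0.88 (SE 0.18, adjusted p = 0.0017) and Xylt2 at -1.43 (SE 0.19, adjusted p = 0.00013). Csgalnact1, which starts chondroitin chains, was 1.03 (SE 0.37, adjusted p = 0.0294), and B3gat3, which completes the linkage region, was -1.77 (SE 0.24, adjusted p = 0.000156). Of 10 genes for sulfate donor and UDP-sugar supply, 5 were higher and 2 lower in acute injury, 4 and 2 in fibrosis, 2 and 1 in cirrhosis, and 0 and 2 in the TAA experiment, or 70%, 60%, 30% and 20% called, each below the share over all genes. Ugdh, which makes UDP-glucuronic acid, was 0.83 (SE 0.27, adjusted p = 0.0194) in cirrhosis after 1.85 (SE 0.22, adjusted p = 9.07e-06) in acute injury, Uxs1, which makes UDP-xylose, was 0.69 (SE 0.17, adjusted p = 0.0046) after 3.75 (SE 0.22, adjusted p = 2.83e-08), and the sulfate donor transporter Slc35b2 was -0.73 (SE 0.24, adjusted p = 0.0172) in cirrhosis.

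Of 10 tested hyaluronan receptors and turnover genes, 1 was higher and 4 lower in acute injury, 3 and 4 in fibrosis, 4 and 1 in cirrhosis, and 3 and 2 in the TAA experiment, or 50%, 70%, 50% and 50% called, above the share over all genes in the TAA experiment only. In cirrhosis Tnfaip6, which binds hyaluronan in inflamed tissue, was 2.13 (SE 0.41, adjusted p = 0.00106), Hmmr, a hyaluronan-binding protein that also marks dividing cells, was 1.87 (SE 0.37, adjusted p = 0.0012), and the scavenger receptor Stab1 was -2.04 (SE 0.22, adjusted p = 6.72e-05). Among other proteoglycan cores, 2 of 13 tested were higher and 9 lower in acute injury, the same counts in fibrosis, 4 of 16 higher and 2 lower in cirrhosis, and 1 of 15 higher and 6 lower in the TAA experiment, or 84.6%, 84.6%, 37.5% and 46.7% called. The small leucine-rich cores Dcn, at 4.11 (SE 0.45, adjusted p = 7.24e-05), and Lum, at 3.71 (SE 0.66, adjusted p = 0.000613), both also on the stellate cell list, were highest in cirrhosis, while Cspg4 was -2.09 (SE 0.30, adjusted p = 0.000176) and the basement membrane core Agrn -1.30 (SE 0.18, adjusted p = 0.000153). Of 11 lysosomal enzymes that break the chains down, 1 was higher and 8 lower in acute injury, 1 and 10 in fibrosis, 1 and 7 in cirrhosis, and 1 and 0 in the TAA experiment, or 81.8%, 100%, 72.7% and 9.09% called. Ids was 0.89 (SE 0.27, adjusted p = 0.0129) in cirrhosis, and the heparan sulfate enzymes Naglu and Sgsh were -1.58 (SE 0.21, adjusted p = 0.000139) and -1.30 (SE 0.22, adjusted p = 0.000426).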

How the data were processed

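RNA of 32 libraries from isolated rat LSECs was sequenced with a stranded mRNA kit. Per the labels and the study's methods, the authors checked and trimmed reads with FastQC and Trim Galore, aligned them to Rnor_6.0 with STAR and estimated reads per gene with RSEM, so the deposited values are expected counts, which need not be whole where reads fit several genes. Here the expected counts were rounded, genes were filtered with filterByExpr in edgeR 4.0.16 within each pair of groups, scaled by TMM and tested with limma-voom (limma 3.58.1, R 4.3.3), the normalization and transformation that the study's methods name. A gene was called at a Benjamini-Hochberg adjusted p under 0.05 over all genes tested and a fold change above 1.5, whereas the study used unadjusted p-values. Tests are two-sided. Levels are CPM, with 0.5 added before log2 in the figures. Intervals of count ratios and limits for counts of 0 (3 counts) cover counting error only.

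The glycocalyx genes, the pathway lists and the marker lists were chosen with earlier results of these data known. A full account was given to genes with an adjusted p under 0.05 and a log2 fold change of at least 1 in either direction against healthy LSECs or in the TAA experiment, at a mean of at least 1 CPM in some group, and the other tested genes were named with a value. All 53 genes matched the RefSeq table and 41 its promoter table, both of GRCr8, which is not the build of the alignment, so no position from it was joined to a read. Total counts of 25646531 to 46464289 per library put a single count near 0.03 CPM. The fits were tested on simulated counts. The alternatives were edgeR's quasi-likelihood test, DESeq2 1.42.0, other scalings, other filters, no fold threshold, unadjusted p-values, quality weights, 1 fit over the CCl4 groups, a block for replicate numbers and each library left out in turn. In the TAA experiment a further alternative averaged TAA control replicates 14 and 15 into 1 library, which changed no call of a glycocalyx gene tested in both fits. In the TAA control group, replicates 14 and 15 differed less than any other pair (chi-square per degree of freedom 3.05, against at least 25.2), which is more than sampling noise. They were kept as 2 libraries in the main fit, although whether they are independent isolations is uncertain.

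Replicate numbers recur across the healthy, acute and cirrhosis groups, and nothing says that a number marks a shared animal or day.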

Additional observations from a re-analysis of the deposited data

Results flagged for a closer look

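In groups of 5 or 6 libraries, the highest or lowest library of each tested gene was compared with the rest by Dixon's test at the 95% level, a rule that flags about 1 in 20 groups by chance. It marked 9 of 194 groups, where chance gives 9.7, so the number of marks is no more than chance gives. None of the 9 was followed by a test of its cause.

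In fibrosis replicate 16, Sdc1 stood at 113.449 CPM above the other fibrosis libraries (50.1 to 59.2 CPM), and Hyal1 at 3.70 CPM above theirs (1.73 to 2.16 CPM). Without this library the Sdc1 call in fibrosis was lost, as given above. In healthy replicate 6, Gpc1 was 0.594 CPM, below the others (1.61 to 2.43 CPM). Hs3st1 was 18.9 CPM in acute replicate 4, against 45.8 to 58.4 CPM in the other acute libraries, and Hs3st5 was 3.79 CPM in fibrosis replicate 15, against 10.5 to 14.6 CPM. In the TAA experiment Sulf2 was 26.7 CPM in control replicate 4, against 9.83 to 12.5 CPM. Chst7 was 33.6 CPM in cirrhosis replicate 3 (others 24.4 to 27.1 CPM), Chst11 was 29.5 CPM in fibrosis replicate 12 (others 38.5 to 42.9 CPM), and Chst12 was 4.22 CPM in acute replicate 2 (others 3.78 to 3.89 CPM).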

How the results depend on the processing

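Over 5706 results of single glycocalyx genes under the alternatives, 5508 kept their side of the thresholds, 100 lost a call, 98 gained one and 0 reversed. A change of sign in a gene called in neither setting was counted as kept, and a reversal needed a call in at least 1 of them. With library size alone, which raised the median of all genes by 0.41 in acute injury, 0.40 in fibrosis and 0.34 in cirrhosis, the genes lower in cirrhosis than in healthy LSECs went from 10 to 6 and the higher ones from 9 to 13; upper-quartile factors, with a median shift of 0.14, gave 10 higher and 8 lower. In 1 fit over the CCl4 groups the genes called between fibrosis and acute injury went from 14 to 9 and the higher ones from 12 to 7. Without the fold threshold 5 genes, not 3, were higher in TAA control than in control libraries. The cause was not tested, apart from what these settings change by construction.

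Leaving out 1 library at a time gave 27 to 29 genes called in acute injury, 24 to 28 in fibrosis and 16 to 21 in cirrhosis against healthy LSECs, 10 to 15 in fibrosis and 29 to 33 in cirrhosis against acute injury, 28 to 30 in cirrhosis against fibrosis, and 20 to 22 in the TAA experiment. The genes lower in fibrosis than in acute injury numbered 1 to 3, with 1 left without acute replicate 1, fibrosis replicate 12 or fibrosis replicate 16.

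The replicate numbers did not pair the libraries: deviations of same-numbered libraries from their group means correlated at -0.24 to 0.29 between healthy and cirrhosis, 0.03 to 0.20 between healthy and acute, and -0.10 to 0.10 between cirrhosis and acute libraries, and not every library correlated best with its own number. With the replicate number as a block, 30 genes were called in acute injury (8 higher, 22 lower), 19 in cirrhosis (9 higher, 10 lower) and 31 between cirrhosis and acute injury (26 higher, 5 lower). The fibrosis group and the groups of the TAA experiment share no numbers with those they were compared with. With 5 or 6 libraries a group, values under about 1 CPM, such as those of Hs3st3a1 and Chst10 in every library, of Gpc6 in healthy and of Extl1 in acute libraries, rest on few counts.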
